A study of Rattus norvegicus with 6 samples.

Results

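Intercalated cells are the acid-base handling cells of the distal nephron and collecting duct. Type A cells secrete protons into the urine through an apical proton pump and return bicarbonate to the blood, while type B cells secrete bicarbonate into the urine in exchange for chloride. Both types need the transcription factor Foxi1 in mice, and both lie in the cortex, scattered among the principal cells that reabsorb sodium and water. The 9 genes described here were taken as genes of these cells. Slc26a4, which encodes the apical chloride-bicarbonate exchanger pendrin, Slc4a9, which encodes the basolateral transporter AE4, Insrr, an alkali-sensing receptor tyrosine kinase related to the insulin receptor, and the homeobox gene Hmx2 were taken as type B genes. Slc4a1, which encodes the basolateral anion exchanger AE1 (band 3), and the transcription factor gene Dmrt2 were taken as type A genes. Foxi1 and the ammonia transporter genes Rhbg and Rhcg were assigned to neither type and are called shared here. Which cells express them was not tested, so their median is no measure of both types. The assignment of Hmx2 and Dmrt2 to a type rests on mouse kidney cells.

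Renal cortex of 6 male Sprague-Dawley rats (Crl:CD(SD), 5 weeks old at purchase) was profiled on 1-colour Agilent arrays, 1 array per animal. Benzyl acetate, a fragrance and flavour ester, was given to 3 rats at 1000 mg/kg/day for 4 weeks, and the vehicle, corn oil, was given to the other 3 for 4 weeks. All 9 genes had probes, 17 in all, among the 31179 genes tested, and every one of the 17 probes was well above background on all 6 arrays. The genes were chosen by their known place in intercalated cells once the log2 differences between benzyl acetate and vehicle on these arrays had been seen, above all that of Slc26a4. Their differences are therefore a description and carry no test. In bulk tissue, fewer cells of a type and less RNA per cell cannot be told apart.

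The share of the 61537 probes detected well above background was 69.0%, 69.8% and 69.4% on benzyl acetate replicates 1, 2 and 3, against 70.5%, 71.0% and 72.0% on vehicle replicates 1, 2 and 3. The 75th percentile of signal was 988, 990 and 883 with benzyl acetate and 1003, 1049 and 1057 with vehicle. Both measures were thus lower on every treated array (exact permutation test, two-sided p = 0.1 for each, the lowest that 3 against 3 allows), as were 3 of the type B genes below, and their part in the differences below was not tested. Benzyl acetate replicate 3 stood apart, at 50.1 on the first principal component (26.2% of the variance) against -24.4 to -0.23 for the other 5 arrays. It also had the lowest 75th percentile of signal and the widest gap between the 3' and 5' control probes of Gapdh, 2.62 log2 against 2.37 to 2.44. Vehicle replicate 1 was on a slide of its own. The differences of Slc26a4, Hmx2 and Insrr at their brightest probes are given below with and without each of these arrays. That of Foxi1 is given with and without benzyl acetate replicate 3. The differences at dimmer probes and of single genes outside the 9, and the correlations, are given over all 6 arrays only. How far these rest on either array is not shown. The proximal tubule genes Miox, Fbp1 and Slc34a1, whose cells fill most of the cortex, were bright, at 9.31, 9.11 and 8.57 with benzyl acetate and 9.22, 9.06 and 8.59 with vehicle. All 8 inner medulla genes listed were also detected, with a median log2 difference of 0.068. In 2 of the 8 all treated arrays lay above all vehicle arrays (7.51% of all genes), and in 0 below (5.31%). As all 8 were detected, these markers do not set the cortex apart from other kidney zones. These levels, like all below, are log2 signals relative to the array's 75th percentile, so 0 is the 75th percentile of all probes. They are relative to each probe and do not rank transcripts by abundance.

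The starts of 3 type B genes are shown because pendrin, Hmx2 and AE4 are the type B genes with a RefSeq start sequence, and they did not behave alike below. Each is the sequence from 250 bases before to 50 after the start site, from the RefSeq table for build GRCr8, which matched 7 of the 9 genes (Insrr and Slc4a1 were not matched). Capitals mark the forkhead core letters TGTTTA or TGTTTG on either strand, that is also TAAACA or CAAACA, the kind of motif that Foxi1 and other forkhead factors bind.
Slc26a4, chr6:53873167-53873466, minus strand: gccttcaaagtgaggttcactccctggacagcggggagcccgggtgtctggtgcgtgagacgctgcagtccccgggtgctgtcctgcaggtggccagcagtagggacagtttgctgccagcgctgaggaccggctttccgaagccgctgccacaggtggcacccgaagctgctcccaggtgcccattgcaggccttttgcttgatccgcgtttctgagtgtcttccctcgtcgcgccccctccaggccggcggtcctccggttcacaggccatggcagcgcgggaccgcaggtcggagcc
Hmx2, chr1:195749034-195749333, plus strand: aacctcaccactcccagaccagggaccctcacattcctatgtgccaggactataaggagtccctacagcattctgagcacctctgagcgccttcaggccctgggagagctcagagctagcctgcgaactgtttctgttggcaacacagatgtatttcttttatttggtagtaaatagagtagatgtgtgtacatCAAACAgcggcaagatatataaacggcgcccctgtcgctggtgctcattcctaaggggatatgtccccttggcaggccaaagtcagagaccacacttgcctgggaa
Slc4a9, chr18:28402543-28402842, plus strand: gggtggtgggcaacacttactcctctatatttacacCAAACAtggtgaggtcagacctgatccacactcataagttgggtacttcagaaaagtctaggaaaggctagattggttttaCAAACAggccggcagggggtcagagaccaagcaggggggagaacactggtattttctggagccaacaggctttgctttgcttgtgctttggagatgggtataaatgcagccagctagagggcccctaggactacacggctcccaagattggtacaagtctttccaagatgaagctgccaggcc
The Slc4a9 window held 2 such matches, beginning at -214 and -133 from the start site, and the Hmx2 window held 1, beginning at -56. The windows of Slc26a4, Foxi1, Dmrt2, Rhbg and Rhcg held none. Of all 33469 windows in the table, 28.4% held at least 1 match and 6.5% held 2 or more, and 2 of the 7 members held a match. A match is a description of letters, not a binding site.

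Among the type B genes, Slc26a4, Hmx2 and Insrr were lower on all 3 benzyl acetate arrays than on any vehicle array, while Slc4a9 was not. Pendrin differed most. The brighter Slc26a4 probe (A_44_P1017035) read 4.88, 4.56 and 4.27 on benzyl acetate replicates 1, 2 and 3, against 5.71, 5.60 and 5.30 on vehicle replicates 1, 2 and 3. The groups did not overlap, and replicate 3 was the lowest array of each. Its mean was 4.57 ± 0.30 with benzyl acetate and 5.53 ± 0.21 with vehicle (SD, n = 3 each), a log2 difference of -0.96 (95% interval -1.41 to -0.51), or 1.95-fold lower. The dimmer Slc26a4 probe gave the same picture, at 2.03, 1.78 and 1.24 with benzyl acetate and 3.01, 2.74 and 2.48 with vehicle, a log2 difference of -1.06. The readings of the 2 probes followed each other over the 6 arrays (Pearson r = 0.992, a description of 1 transcript read by 2 probes).

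Hmx2, a homeobox gene, read 1.94, 2.04 and 1.64 with benzyl acetate and 2.74, 2.28 and 2.33 with vehicle at its brighter probe. The highest benzyl acetate array lay below the lowest vehicle array, and vehicle replicate 1 stood above its own group. The log2 difference was -0.58 (95% interval -0.98 to -0.17), 1.49-fold lower, and the dimmer probe gave -0.71. Within the slide that held 2 vehicle and 3 benzyl acetate arrays the Hmx2 difference was -0.43.

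Insrr, whose product senses alkaline pH outside the cell, had 3 probes with closely similar differences. The brightest read -1.37, -1.19 and -1.82 with benzyl acetate and -0.95, -0.74 and -0.91 with vehicle, so all treated arrays lay below all vehicle arrays and benzyl acetate replicate 3 lay lowest. The log2 difference was -0.60 (95% interval -1.02 to -0.17), 1.51-fold lower, and the other probes gave -0.60 and -0.63. The other receptor genes of its family had log2 differences of 0.044 for Insr and 0.070 for Igf1r.

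Slc4a9 did not share this pattern. Its brighter probe by mean signal read 2.37, 2.89 and 2.37 with benzyl acetate and 2.54, 2.62 and 2.27 with vehicle, and the groups overlapped. The log2 difference was 0.065 (95% interval -0.36 to 0.49). The second Slc4a9 probe gave -0.17 (-0.51 to 0.17), in the other direction, and the readings of the 2 probes did not follow each other over the 6 arrays (Pearson r = -0.004). The 2 probes were almost equally bright, and the choice between them changed the sign. At the brighter probe the sign also changed without vehicle replicate 3 (-0.037) or without benzyl acetate replicate 2 (-0.11). The intervals of both probes leave out a difference as low as the -0.96 of Slc26a4. The Slc26a4 interval itself reached up to -0.51, so it nearly meets that of the second Slc4a9 probe. As Slc26a4 was chosen with its difference known, this is a description and no test.

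**Figure D1:**
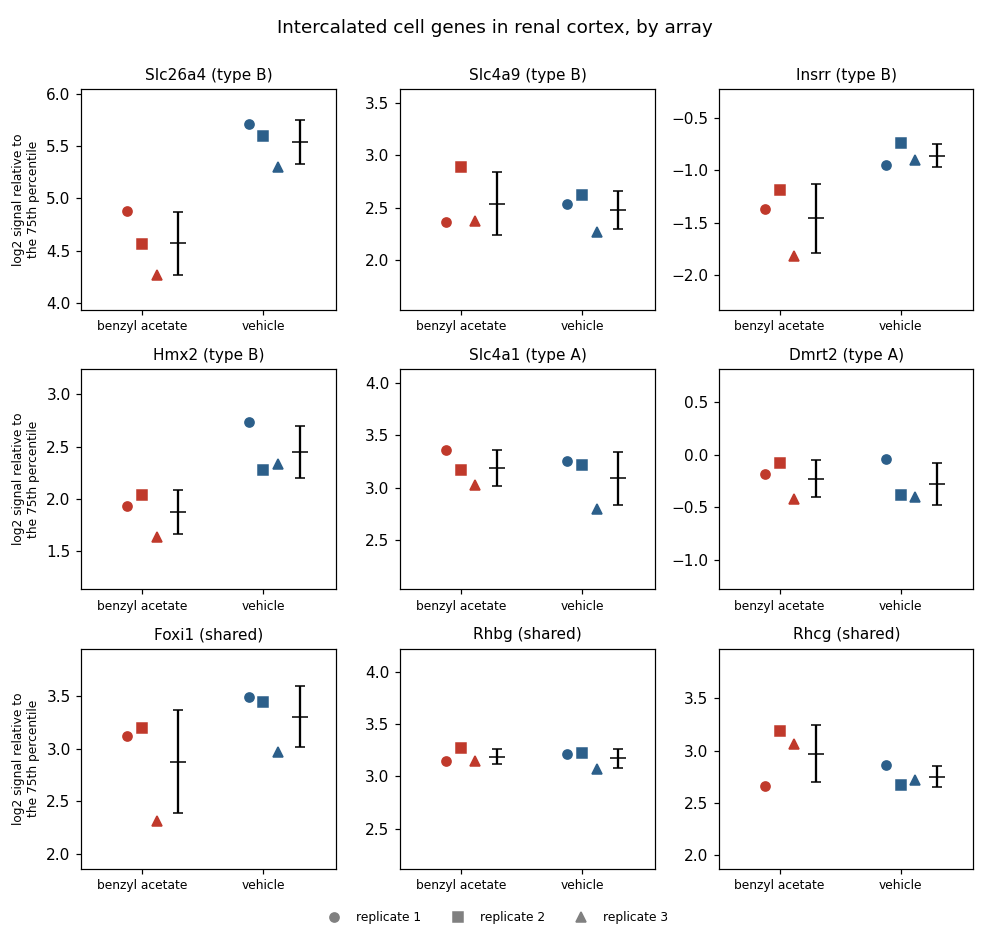
Log2 signal of each of the 9 genes at its brightest probe, with benzyl acetate arrays on the left and vehicle arrays on the right of each panel; symbols give the replicate, and the black bar is the mean ± SD (n = 3). All panels span the same number of log2 units. Slc26a4, Insrr and Hmx2 have all treated points below all vehicle points, and the other 6 genes overlap.

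The type A genes overlapped between the groups. Slc4a1, whose product is also the band 3 protein of red cells, read 3.36, 3.17 and 3.02 with benzyl acetate and 3.26, 3.21 and 2.80 with vehicle. Its log2 difference was 0.093 (95% interval -0.29 to 0.47), and its dimmer probe gave 0.19. Dmrt2 had 1 probe, which read -0.19, -0.07 and -0.42 with benzyl acetate and -0.04, -0.38 and -0.40 with vehicle, a log2 difference of 0.048 (-0.29 to 0.39). Vehicle replicate 1 was the highest Dmrt2 array of its group.

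The bright red cell transcripts differed little beside Slc4a1. The globin genes Hba-a1, Hba-a3 and Hbb differed by 0.040, 0.019 and 0.039 log2, and Alas2, the erythroid enzyme of haem synthesis, by -0.048. Ahsp, which encodes a chaperone of alpha globin and was named after its values were seen, averaged -0.52 ± 0.81 with benzyl acetate and 0.31 ± 0.35 with vehicle (SD, n = 3 each), a log2 difference of -0.83 (95% interval -1.87 to 0.21) with overlapping groups. Of the 18 erythroid genes listed, 12 were tested, none passed and 7 of the 12 differences were negative. Their median log2 difference was -0.036, against 0.012 over all genes tested. In 3 of the 12, Epb42, Hemgn and Kel, named after their values were seen, all treated arrays lay below all vehicle arrays (5.31% of all genes). Kel was well above background on only 1 of 3 benzyl acetate arrays and was kept through the vehicle arrays alone, so its place in this count follows in part from the filter and its difference is not given. Epb42 and Hemgn were dim, at -4.81 and -5.05 with benzyl acetate and -4.31 and -4.13 with vehicle, and differed by -0.50 and -0.92 log2. The list's mean log2 signal was 0.44 to 0.95 on the benzyl acetate arrays and 0.90 to 1.04 on the vehicle arrays. Kel is also in this mean, in the median and in the 7 of 12, so these too follow in part from the filter. Rhag, Gata1 and Trim10 were not well above background on all arrays of either group. The share of the Slc4a1 signal that came from red cells was not tested.

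Of the shared genes, Foxi1 and Rhcg each had 1 treated array below all vehicle arrays, and Rhbg had none. Foxi1, the transcription factor that intercalated cells depend on, read 3.12, 3.20 and 2.31 with benzyl acetate and 3.50, 3.45 and 2.97 with vehicle. Only benzyl acetate replicate 3 lay below all vehicle arrays, and the other 2 treated arrays lay within the vehicle range. The log2 difference was -0.43 (95% interval -1.10 to 0.25), with -0.32 and -0.48 at the 2 dimmer probes, and without benzyl acetate replicate 3 it was -0.15. The 3 Foxi1 probes followed each other closely (Pearson r of 0.987 to 0.994 over the 6 arrays), so the low reading of replicate 3 was not that of 1 spot.

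Rhbg, the basolateral ammonia transporter gene, was the steadiest of the 9. It read 3.14, 3.27 and 3.15 with benzyl acetate and 3.22, 3.23 and 3.07 with vehicle, a log2 difference of 0.016 (95% interval -0.18 to 0.21). Rhcg, which encodes a paralogous ammonia transporter found on the apical side as well, read 2.66, 3.18 and 3.07 with benzyl acetate and 2.87, 2.67 and 2.72 with vehicle. Benzyl acetate replicates 2 and 3 lay above all vehicle arrays and replicate 1 lay below them, and the log2 difference was 0.22 (-0.14 to 0.58).

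**Figure D2:**
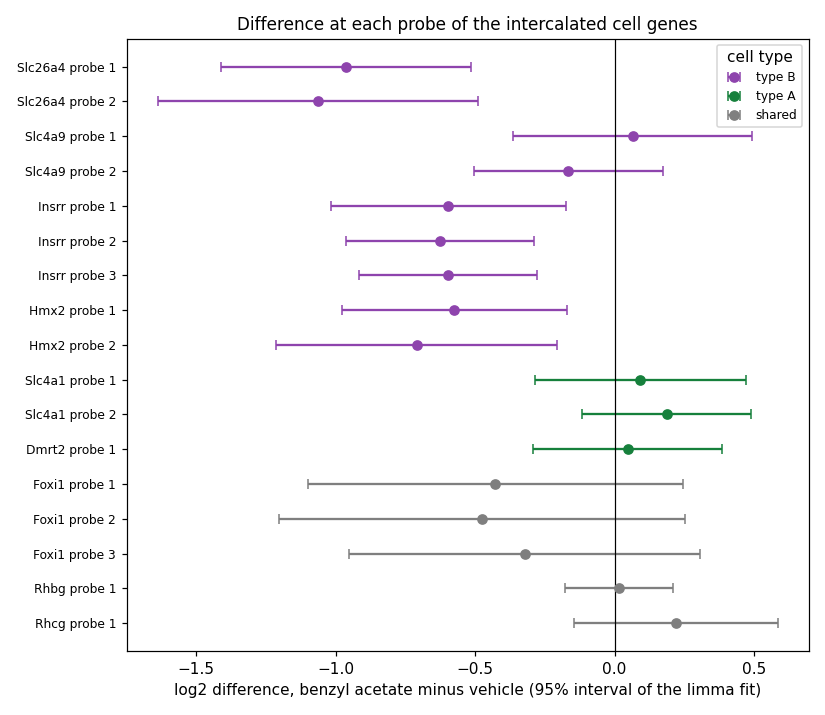
Log2 difference, benzyl acetate minus vehicle, at each of the 17 probes of the 9 genes, with the 95% interval of the limma fit; probe 1 is the brightest of its gene. The 7 probes of Slc26a4, Insrr and Hmx2 lie between -1.06 and -0.58, and the 2 Slc4a9 probes lie on either side of 0.

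In limma 0 of the 9 genes passed an adjusted p of 0.05 over all 31179 genes in either direction, where 0.0% of all genes passed higher and 0.0% lower. At an unadjusted p under 0.05 limma had 1190 genes higher and 910 lower with benzyl acetate. Of the 9 genes, 3 had all treated arrays below all vehicle arrays, against 5.31% of all genes, and 0 had them all above, against 7.51%. A log2 difference of -0.5 or lower was found in the same 3 genes and in 2.63% of all genes. A difference at or below that of Slc26a4 was found in 161 genes (0.516%). Because the genes were listed with this contrast known, nothing is read from these shares. The median log2 difference was -0.59 for the 4 type B genes, 0.070 for the 2 type A genes and 0.016 for the 3 shared genes, against 0.012 over all genes tested.

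The 3 lower genes had all treated arrays below all vehicle arrays. Leaving out an array could therefore not change their direction, only the size of the difference. Without benzyl acetate replicate 3 the log2 differences were -0.81 for Slc26a4, -0.46 for Hmx2 and -0.42 for Insrr. Without vehicle replicate 1, which leaves the slide shared by both groups, they were -0.88, -0.43 and -0.64 in the same order. The Foxi1 difference, -0.43 over all arrays, was -0.15 without benzyl acetate replicate 3 and -0.60 without vehicle replicate 3. Whether the RNA or signal differences of benzyl acetate replicate 3 had a part in its low Foxi1 and Slc26a4 readings was not tested.

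The 9 genes varied together only in part across the 6 arrays. Measured from the vehicle mean, Slc26a4 stood at -0.66, -0.97 and -1.26 on benzyl acetate replicates 1, 2 and 3, and the median of the 4 type B genes at -0.51, -0.37 and -0.88. The median of the 2 type A genes stood at 0.18, 0.14 and -0.11 on the same arrays. Replicate 3 was thus the lowest treated array in both, and also for Foxi1, at -0.99. Vehicle replicate 3 was the lowest vehicle array for Slc26a4, Slc4a9, Slc4a1, Dmrt2, Foxi1 and Rhbg.

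**Figure D3:**
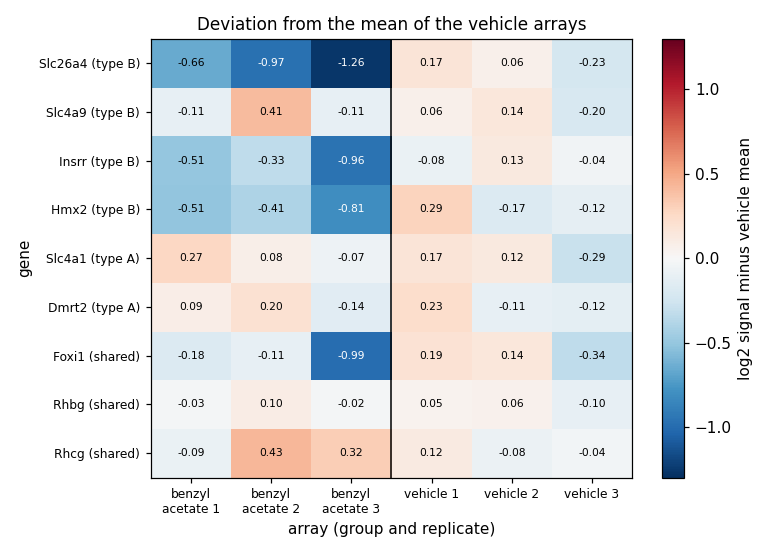
Log2 signal of each gene (rows) on each array (columns, benzyl acetate left of the line and vehicle right of it) minus the gene's mean over the 3 vehicle arrays, as colour and number. The blue cells gather in Slc26a4, Insrr and Hmx2 on the treated arrays and in Foxi1 on benzyl acetate replicate 3, where it stands at -0.99.

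Pairwise correlations over the 6 arrays describe the same pattern. All 36 pairs were computed. They rest on 6 points that share their arrays and hold both groups, and 3 arrays per group are too few to correlate within a group, so no p is given. Slc26a4 correlated with Hmx2 at r = 0.906 (Spearman rho = 0.886) and with Insrr at r = 0.883 (rho = 0.771), and Insrr with Hmx2 at r = 0.824 (rho = 0.771). With each group's mean taken off these values of r were 0.637, 0.542 and 0.421, a median of 0.542 against 0.546 over all 36 pairs. At its brighter probe Slc4a9 correlated with Slc26a4 at r = -0.05 (rho = 0.029) and with Rhbg at r = 0.934 (rho = 1.0). The other Slc4a9 probe, almost equally bright, did not follow the brighter probe (r = -0.004). Its correlations with Slc26a4 and Rhbg are not given. The Slc4a9 values therefore describe the brighter probe only, and whether the transcript follows Slc26a4 or Rhbg is not shown.

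Other pairs looked different once the group means were taken off. Slc26a4 correlated with Slc4a1 at r = 0.127 (rho = 0.371) over all arrays and at 0.925 with the group means taken off. With Foxi1 the values were 0.79 (rho = 0.771) and 0.861, and with Rhcg -0.661 (rho = -0.429) and -0.473. Over 11928 other genes with a symbol that were well above background on all arrays, the median r with Slc26a4 was -0.039, and 1.27% had an r of 0.9 or more. The genes most like Slc26a4 over the 6 arrays included Haao (r = 0.997), Zfp652 (0.992), Tspan11 (0.990) and Prmt1 (0.990), with log2 differences of -0.30, -0.35, -0.36 and -0.16. With the group means taken off the 5 were Man2a2 (r = 0.998), Slc29a3 (0.996), Znrd2 (0.995), Tspan11 (0.995) and Cpsf4 (0.994).

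Among other genes of intercalated cells, most differences were small. Of 28 listed genes that are not among the 9, 24 were tested, 0 passed in limma higher and 0 lower, and their median log2 difference was -0.045. In 2 of the 24, Atp6v1g3 and Hepacam2, all treated arrays lay below all vehicle arrays (5.31% of all genes), and in 0 above (7.51%). Atp6v1g3, a proton pump subunit found mainly in intercalated cells, read 5.67, 5.72 and 5.59 with benzyl acetate and 6.49, 6.36 and 6.02 with vehicle. Its groups did not overlap, the log2 difference was -0.63 (95% interval -0.96 to -0.31), and the dimmer probe gave -0.58. Over the 6 arrays it correlated with Slc26a4 at r = 0.945 (0.673 with the group means taken off). Hepacam2, named after its values were seen, differed by -0.27 (-0.59 to 0.045) at its brighter probe and by -0.40 at its dimmer probe.

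The other pump subunits fixed for naming differed less. Atp6v1b1, the subunit typical of intercalated cells, differed by -0.069 log2 (95% interval -0.32 to 0.18), and Atp6v0d2 by -0.26 (-0.54 to 0.029). Atp6v0a4 had no probe matched to its symbol. Car2, the cytosolic carbonic anhydrase that supplies protons and bicarbonate in both cell types, differed by 0.077 (-0.095 to 0.25), with 4.71, 4.67 and 4.63 with benzyl acetate and 4.51, 4.60 and 4.66 with vehicle. Tfcp2l1, a transcription factor of the collecting duct, differed by -0.13 (-0.32 to 0.065) at its brighter probe and by 0.16 at its dimmer probe.

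Further type A and type B genes did not show the pattern of Slc26a4. Aqp6, a water channel of type A cell vesicles, differed by 0.17 log2 (95% interval -0.19 to 0.54), and Kit, a receptor kinase of type A cells in mice, by 0.16 (-0.063 to 0.38). Slc26a7, the type A chloride-bicarbonate exchanger gene, was not well above background on all arrays of either group. Oxgr1, the alpha-ketoglutarate receptor of type B cells, was dim and differed by 0.17 (-0.18 to 0.51), the other direction from Slc26a4. Slc4a8, a sodium-dependent exchanger paired with pendrin in type B cells of mice, differed by -0.036 (-0.60 to 0.53).

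Family members of the 9 genes are set beside them as a check of paralogues. Of 5 SLC26 genes tested, 1 had separate groups (5.31% of all genes lay below and 7.51% above). It was Slc26a4, listed with its difference known, so nothing is read from this count. Slc26a6 differed by -0.087 log2 and Slc26a1 by -0.042. Slc26a2 was well above background on 2 of 3 benzyl acetate arrays and was kept through the vehicle arrays alone. Its difference is not given. Of 10 SLC4 genes tested, which ranged from -0.20 to 0.19, 0 had separate groups. Hmx3, a paralogue of Hmx2, was dim and its groups overlapped. It was well above background on 2 of 3 benzyl acetate arrays and was kept through the vehicle arrays alone. Its difference follows in part from the filter and is not given. Hmx1, another paralogue, differed by 0.081 (-0.10 to 0.26). Dmrta2, in the family of Dmrt2 and named after its values were seen, read -3.52, -4.31 and -3.30 with benzyl acetate and -3.24, -2.78 and -2.89 with vehicle, so its groups were separate at a dim level, and it differed by -0.74 (-1.42 to -0.053). Among regulators of pendrin and sodium handling, the mineralocorticoid receptor gene Nr3c2 differed by 0.028 (-0.13 to 0.18) and the angiotensin receptor gene Agtr1a by 0.018 (-0.30 to 0.34). Of the 13 regulators listed, all tested, 0 passed and 0 had separate groups.

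Markers of the neighbouring cells were measured beside the type B genes. Distal convoluted and connecting tubule genes mark the segments where many type B cells lie. Their median log2 difference was -0.12, against 0.012 over all genes tested, and 8 of 8 were negative. Their mean log2 signal was 2.45 to 2.62 on the benzyl acetate arrays and 2.68 to 2.69 on the vehicle arrays. Klk1, the kallikrein of the connecting tubule, differed by -0.035, Egf by -0.14 and the kinase gene Wnk1 by -0.021. Calb1, the calbindin gene of the connecting tubule, named after its values were seen, read 1.45, 1.88 and 2.03 with benzyl acetate and 2.24, 2.21 and 2.13 with vehicle. It was the 1 gene of the 8 with all treated arrays below all vehicle arrays (5.31% of all genes), and 0 had them above (7.51%). Its lowest array was benzyl acetate replicate 1. Its r with Slc26a4 was 0.511 over the 6 arrays and -0.68 with the group means taken off. The part of these segments in the type B result was not tested.

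Principal cell genes had a median log2 difference of 0.069 over 13 tested, with mean log2 signals of 1.58 to 1.77 on the benzyl acetate arrays and 1.57 to 1.70 on the vehicle arrays. In 2 of the 13, Aqp3 and Kcnj1, all treated arrays lay below all vehicle arrays (5.31% of all genes), and in 1, Scnn1b, all lay above (7.51%). Kcnj1, a potassium channel gene, differed by -0.23 and Scnn1b, a sodium channel subunit gene, by 0.18. Aqp2, the vasopressin-regulated water channel, differed by -0.23 (95% interval -0.59 to 0.12) at its brighter probe and by 0.074 at its dimmer probe. Hsd11b2, which protects the mineralocorticoid receptor from glucocorticoids, differed by 0.13 and the water channel gene Aqp3 by -0.16. The 11 proximal tubule genes tested had a median log2 difference of 0.056. They ranged from -0.325 to 0.229, and 4 of the 11 were negative. In 3 of the 11 all treated arrays lay above all vehicle arrays (7.51% of all genes), and in 0 below (5.31%). These 3, Slc22a6, Slc22a8 and Slc5a12, differed by 0.19, 0.14 and 0.23. None of the principal cell, distal, thick ascending limb, proximal tubule or erythroid genes passed in limma.

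**Figure D4:**
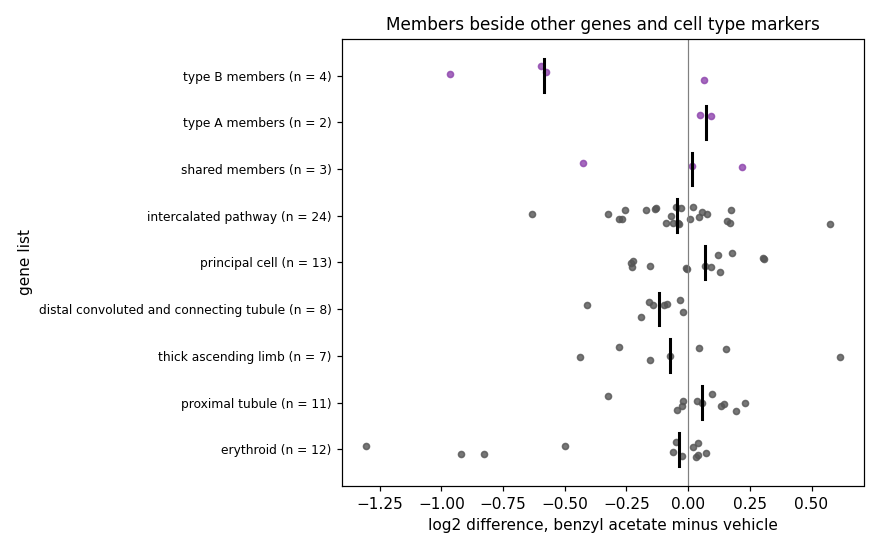
Log2 difference, benzyl acetate minus vehicle, of each tested gene (points) in the type B, type A and shared genes and in 6 other gene lists, with the median of each list as a black bar. The type B median stands at -0.59, and the medians of the other lists stand between -0.12 and 0.070.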

How the data were processed

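Cy3-labelled renal cortex RNA was read on 1-colour arrays, per the labels. The authors deposited scanner tables of intensity values made with Agilent Feature Extraction, version 10.7 in the submitters' processing notes. Per the file headers, the software had subtracted background from the processed signal but had not scaled the arrays to each other. The authors also deposited a value table of intensity values. It equalled the processed signal divided so that each array's 75th percentile was 1, is linear and not centred per gene, and had column medians of 0.1148, 0.1118 and 0.1125 for benzyl acetate and 0.1102, 0.111 and 0.111 for vehicle.

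Each processed signal was turned to log2, and the log2 of its array's 75th percentile (61537 non-control probes) was taken off. Outlier spots were left out, and no spot was saturated. This scaling is blind to a shift common to most transcripts. Unversioned probe accessions were looked up in a RefSeq gene table for GRCr8, which named 28193 probes with 15639 symbols. The array grid names rn4, so probes are given no coordinates, and the coordinates of the 3 start sequences are those of the RefSeq table. A probe was kept if 1 group or both had it well above background on all 3 arrays, and the brightest probe stood for its gene. Limma 3.58.1 (R 4.3.3) was run over both groups, Benjamini-Hochberg adjusted over all genes, and was tested on simulated data. The 9 genes and the other lists were chosen with earlier results of these data known. Genes named from the lists followed a rule: 10 pathway genes in any case, the 3 brightest of a marker list, family members nearest a member, and the 5 genes most like Slc26a4 by each measure, of which 1 is not reported here. Ahsp, Alas2, Calb1, Dmrta2, Kcnj1, Scnn1b, Slc22a6, Slc22a8, Slc5a12, Slc4a8, Slc26a2, Nr3c2, Agtr1a, Hepacam2, Epb42, Hemgn and Kel were named besides. Replicate numbers were not treated as pairs. Correlations of deviations were -0.108, 0.008 and 0.001 for numbers 1, 2 and 3, against -0.108 to 0.121 for unlike numbers. With 3 arrays per group they cannot exclude a pairing. The labels call the replicates biological. The number of arrays limits the precision.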

Additional observations from a re-analysis of the deposited data

How the results depend on the processing

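Alternatives tried were blocks for slide and for replicate number, normexp, quantile or median scaling, looser and stricter detection, the lowest-signal or mean probe, outlier spots kept, a trended robust prior, the authors' own value table, and each array left out in turn. No gene passed in limma over all genes, except 2 lower with normexp (run on the median spot signal), 2 lower without benzyl acetate replicate 1, and 3 higher and 1 lower without benzyl acetate replicate 3, a range of 0 to 3 higher and 0 to 2 lower. None of these was among the 9 genes. The median difference of the type B genes ran from -0.65 to -0.53 over the alternatives with all arrays and from -0.70 to -0.44 on leaving out an array, and Slc26a4 from -1.06 to -0.88 and from -1.12 to -0.81. The type A median ran from 0.041 to 0.17 and from -0.033 to 0.17, the shared median from -0.013 to 0.039 and from -0.035 to 0.045, and the pathway list median from -0.074 to -0.032 and from -0.053 to -0.022. With the replicate block the Slc26a4 difference stayed at -0.96 and 0 genes passed. Foxi1 ran from -0.60 to -0.15 on leaving out an array, and Slc4a9 from -0.17 with its other probe to 0.15 without an array. The medians and the differences of the 9 genes each moved by less than 1 SD between arrays. Without vehicle replicate 1 and with the slide as a block the same arrays are compared.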
